A study of Mus musculus with 9 samples.

Results

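The proteasome subunit genes were described in single-nucleus RNA sequencing of mouse brain. The 50 members of the 31053 genes listed were chosen by symbol (Psma to Psmg followed by a number, pseudogene entries left out). The rule used no measured value, but it was chosen with earlier results of these data known. They comprised 14 genes of the core particle, 17 of the regulatory particle and 19 others, which were immunoproteasome and tissue-restricted core subunits, activators, the inhibitor-like Psmf1, assembly chaperones, and Psmc3ip, which matched the symbol rule but is no proteasome subunit. Nuclei came from pooled cortex and hippocampus of 9 wild-type male C57BL/6 mice, with 1 library per animal and 3 per group. All mice had received an AAV intravenously, by retro-orbital injection, 8 weeks before tissue was taken. Young_EGFP mice (5 months) and Aged_EGFP mice (19 months) received AAV-EGFP, and Aged_B3GNT3 mice (19 months) received AAV-B3GNT3, which encodes a glycosyltransferase that extends mucin-type O-glycans. Expression was driven by a shortened CLDN5 promoter from a capsid aimed at brain endothelium, so no transgene was directed to neurons or glia and every group, the young controls included, carried a vector. By the paper's methods, aged mice came from the National Institute on Aging colony and young mice from Jackson Laboratories. Age and source of the mice thus cannot be told apart. Ageing is used below for Aged_EGFP against Young_EGFP, and treatment for Aged_B3GNT3 against Aged_EGFP. Both comparisons use the same 3 Aged_EGFP libraries, so a departure of these libraries appears in both with opposite sign.

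The proteasome degrades proteins that carry ubiquitin chains. Its core particle is a stack of rings, with outer rings of alpha subunits (Psma) that gate the entrance and inner rings of beta subunits (Psmb) that hold the proteolytic sites. The regulatory particle caps the core. Its base holds the ubiquitin receptor Psmd4 and ATPases (Psmc) that unfold substrates, and its lid, of further Psmd subunits, removes ubiquitin. In neurons and glia, where proteins of long-lived cells must be turned over, subunit genes are broadly expressed, and the transcription factor Nrf1 (Nfe2l1) is known to raise them together when the proteasome is inhibited.

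The libraries held 47332047 to 79964605 unique molecular identifiers (UMIs) each, and 70258 of 77823 barcodes were kept as nuclei. Any pair of libraries shared 7 to 37 barcodes. Nuclei were clustered, and the clusters were named by their resemblance to cell types from marker genes, so each class name below stands for a marker-defined likeness. The classes tested were excitatory neurons (20389 nuclei), inhibitory neurons (8169), astrocytes (8393), oligodendrocytes (20312), oligodendrocyte precursors (2647), microglia (136 to 366 per library) and brain endothelial cells (738, at 51 to 117 per library). The inhibitory class included 3716 nuclei of a cluster with striatal markers (Drd1, Drd2, Adora2a), which are not expected of the labelled tissues. At a finer clustering the microglial nuclei split into 1335 and an unnamed 831 led by Mrc1, F13a1, Ms4a4a and Stab1, so the class is a mixture. Unnamed clusters held 7.84 to 11.8% of nuclei in Young_EGFP libraries, 2.77 to 10.6% in Aged_EGFP and 2.59 to 7.24% in Aged_B3GNT3. UMIs of endogenous B3gnt3 in endothelial nuclei did not exceed 7 in any library, and as the vector-borne transcript may not be counted by this gene, they do not check the treatment labels. Counts were summed per library and class, so a lower level cannot be told apart from fewer nuclei of a subtype or less RNA per nucleus. The labels do not say that the nuclei of different libraries were prepared in different batches or on different days.

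Promoter sequences are shown for 4 members that are prominent in the results below, as the 250 bases before the RefSeq transcription start (GRCm38.p6, 5′ to 3′ on the gene's strand). Psmb4, Psmb5 and Psmb6 changed in more than 1 class or comparison and span under 4 kb each, and Psmd4 is a regulatory member for contrast. The windows are chr3:94886959-94887208 (minus) for Psmb4, chr14:54617996-54618245 (minus) for Psmb5, chr11:70525107-70525356 (plus) for Psmb6 and chr3:95042615-95042864 (minus) for Psmd4. Capitals mark matches, on either strand, to TGACNNNGC (the core of the antioxidant response element bound by Nrf factors), CCAAT (which appears as ATTGG on the other strand), CCGGAAG (the core of ETS family sites), or to the ZNF143 type site.
Psmb4: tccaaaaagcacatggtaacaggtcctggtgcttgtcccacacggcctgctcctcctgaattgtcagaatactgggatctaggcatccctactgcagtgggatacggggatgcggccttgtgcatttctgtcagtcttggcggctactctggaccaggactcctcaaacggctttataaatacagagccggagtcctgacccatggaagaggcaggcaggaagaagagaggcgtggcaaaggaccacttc
Psmb5: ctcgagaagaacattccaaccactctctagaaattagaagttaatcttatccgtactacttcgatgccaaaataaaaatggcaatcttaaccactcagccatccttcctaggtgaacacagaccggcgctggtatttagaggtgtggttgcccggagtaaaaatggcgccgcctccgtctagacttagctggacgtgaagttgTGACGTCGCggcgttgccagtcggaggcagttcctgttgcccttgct
Psmb6: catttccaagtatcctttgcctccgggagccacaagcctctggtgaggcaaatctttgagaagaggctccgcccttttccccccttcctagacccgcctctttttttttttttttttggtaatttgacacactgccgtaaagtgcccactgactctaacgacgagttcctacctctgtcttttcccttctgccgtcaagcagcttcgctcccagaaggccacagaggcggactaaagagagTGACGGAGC
Psmd4: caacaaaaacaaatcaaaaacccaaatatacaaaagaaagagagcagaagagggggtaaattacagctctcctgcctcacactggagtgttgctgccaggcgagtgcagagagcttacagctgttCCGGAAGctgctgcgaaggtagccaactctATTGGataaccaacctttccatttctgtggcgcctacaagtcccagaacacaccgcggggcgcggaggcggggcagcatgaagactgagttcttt

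Psmb5 held TGACNNNGC ending 38 bases before the start and Psmb6 held it directly before the start, whereas the Psmb4 window held none of the 4 motifs. A window was at hand for 42 members. TGACNNNGC was present in 5 of these 42 (Psmb5, Psmb6, Psmc6, Psmd9 and Psmd12), against 10.2% of all 32851 promoter windows. CCAAT was present in 15 of 42 members, against 33.8% of all windows, with 6 of 11 core and 4 of 14 regulatory members. CCGGAAG was present in 13 of 42 members, against 6.91% of all windows. It was found in 8 of 14 regulatory members and in 1 of 11 core members (Psma6). The ZNF143 type site was present in 2 members (Psmd10 and Psmd11), against 0.883% of all windows. These are letter matches in a fixed window, and no measurement of binding was made.

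The summed level of the 14 core genes had a higher mean in Aged_EGFP than in Young_EGFP in every class tested. In the neuron classes the libraries of these groups overlapped. In oligodendrocytes the regulatory sum moved less than the core sum. This held for the sum and not gene by gene. The median ageing log2 fold change in oligodendrocytes was 0.31 over core genes and 0.37 over regulatory genes. In oligodendrocytes the core sum was 473 ± 32.1 CPM (UMIs per 1000000 UMIs of the class sum; mean ± SD, n = 3) in Young_EGFP, 588 ± 63.7 in Aged_EGFP and 528 ± 33.3 in Aged_B3GNT3. The regulatory sum was 734 ± 37.4, 781 ± 38.6 and 786 ± 36.2 CPM. With TMM-scaled totals the regulatory sum was 754 ± 53.1, 803 ± 28.7 and 752 ± 39.5 CPM, so that its direction for treatment turned, whereas the core sum was 486 ± 37.3, 604 ± 61.9 and 506 ± 36.6. The ratio does not depend on the scaling. The ratio of core to regulatory sums was thus 0.644 ± 0.032 in Young_EGFP, 0.752 ± 0.051 in Aged_EGFP and 0.672 ± 0.024 in Aged_B3GNT3. The Aged_EGFP libraries had ratios of 0.694, 0.770 and 0.791, and the lowest of them, replicate 1, lay within the range of the Aged_B3GNT3 libraries. In astrocytes the ratio was 0.714 to 0.753 in Aged_EGFP libraries, above the 0.612 to 0.648 of Young_EGFP and the 0.651 to 0.697 of Aged_B3GNT3, with no overlap. In excitatory neurons the ratio was 0.652 ± 0.021, 0.650 ± 0.016 and 0.643 ± 0.0015, and the groups differed by less than the spread of the EGFP libraries. In neurons the direction of these sums for treatment turned with the scaling: in excitatory neurons, from Aged_EGFP to Aged_B3GNT3, the core mean was 424 and 432 CPM and the regulatory mean 652 and 672 with raw totals, against 433 and 404 and 666 and 627 with TMM, and in inhibitory neurons the core mean was 431 and 444 against 446 and 419. Divided by gene span, which gives short genes such as Psmb4, Psmb5, Psmb6 and Psma7 more weight than in the plain sum, the oligodendrocyte core sum was 32.9 ± 1.29, 46.9 ± 6.94 and 36.7 ± 2.09 CPM per kb, and the regulatory sum was 35.0 ± 0.28, 42.6 ± 2.89 and 39.8 ± 2.04. These sums are a description over chosen genes and carry no test.

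Brain endothelial cells, the class the vector was aimed at, varied widely among the Aged_EGFP libraries and less in Aged_B3GNT3. Their core sum was 627 ± 61.2 CPM in Young_EGFP, 883 ± 174 in Aged_EGFP and 674 ± 17.1 in Aged_B3GNT3, and the ratio was 0.825, 1.04 and 0.771, from few nuclei. In microglia the core sum was 523, 600 and 524 CPM. In oligodendrocyte precursors the Young_EGFP and Aged_EGFP libraries overlapped in the core sum (295 to 375 and 371 to 436 CPM) and in the ratio (0.502 to 0.608 and 0.600 to 0.621). An unnamed cluster of low-UMI barcodes, which served as the estimate of free RNA, had core sums of 737 ± 168, 1277 ± 102 and 936 ± 132 CPM and ratios of 0.805, 1.03 and 0.858, in the same order of groups as the oligodendrocyte means. The points of all 9 libraries are given in the plot of summed core and regulatory levels.

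**Figure D1:**
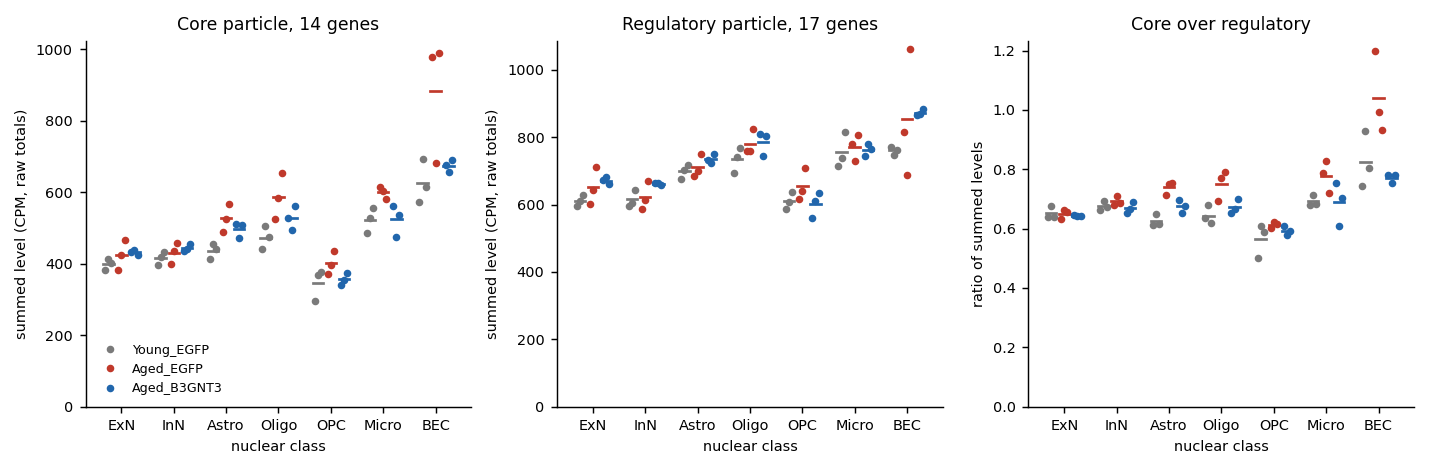
Summed levels of the 14 core and 17 regulatory particle genes (CPM over raw class totals) and their ratio, by nuclear class (ExN and InN, excitatory and inhibitory neurons; Astro, astrocytes; Oligo, oligodendrocytes; OPC, oligodendrocyte precursors; Micro, microglia; BEC, brain endothelial cells). Each point is 1 library and each line a group mean; in astrocytes the Aged_EGFP ratios (0.714 to 0.753) lie above those of both other groups, and in excitatory neurons the groups overlap.

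Each member was tested in each class with edgeR's quasi-likelihood test over all genes of the class, with Benjamini-Hochberg adjustment, and called at an adjusted p under 0.05. Of the 50 members, 46 had enough counts in 1 class or more and 18 in all 7 classes. Psma8, Psmb11, Psmb8 and Psme2b were tested in none. There were 25 calls, of 14 members, and the share of all genes called is given beside the counts of each class below. Gene levels below are CPM with class totals scaled by TMM, given in the order of replicates 1 to 3 for Young_EGFP, then Aged_EGFP, then Aged_B3GNT3.

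**Figure D2:**
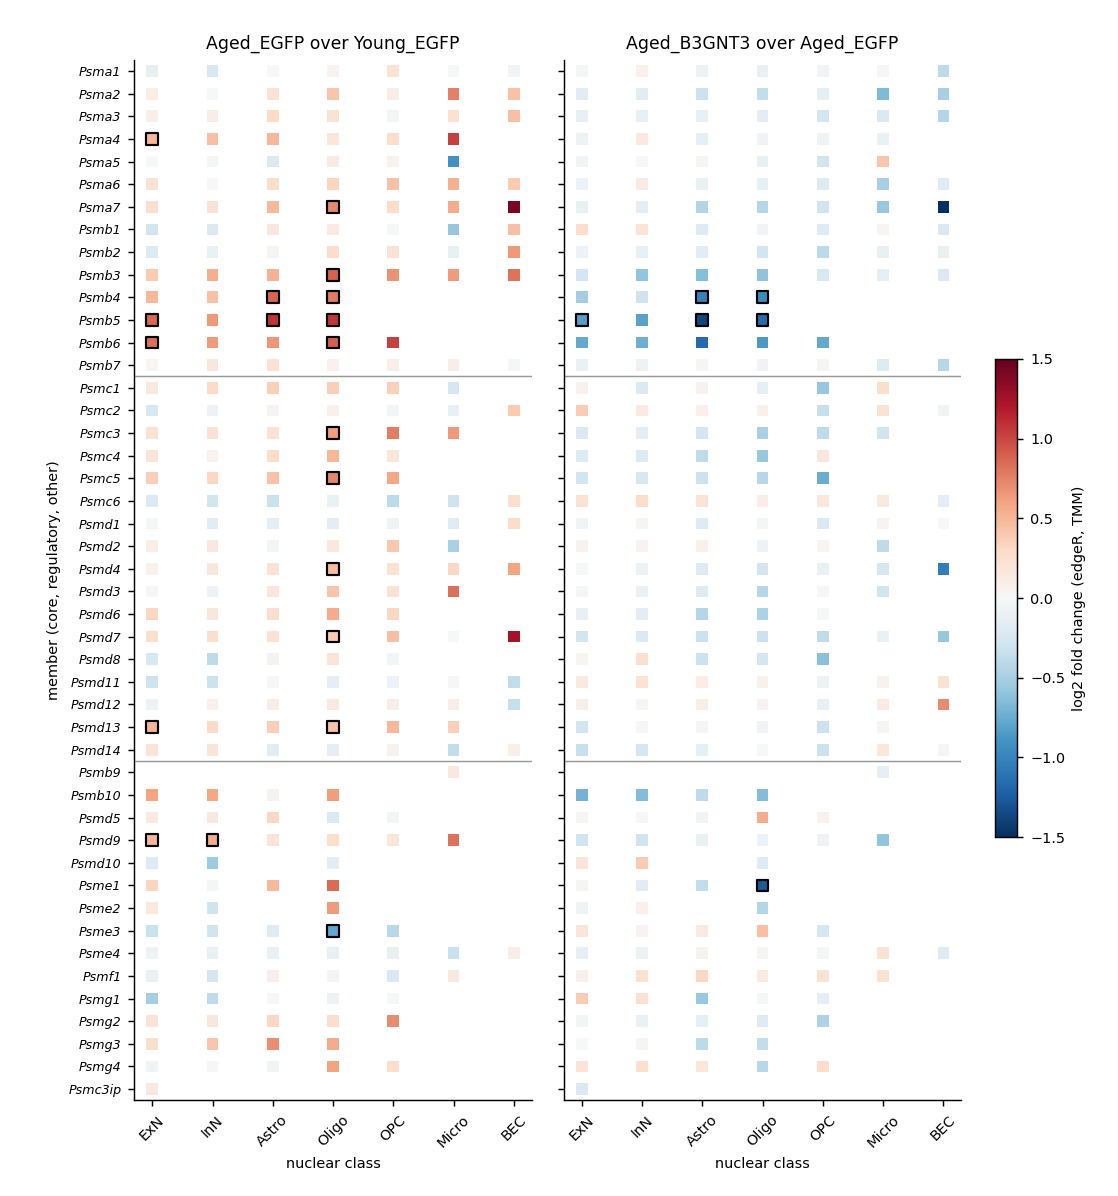
Log2 fold change of each tested member (rows: core, regulatory and other members, divided by grey lines) in each class for ageing (left) and treatment (right). Colour gives the log2 fold change, red higher and blue lower, black outlines mark an adjusted p under 0.05 and empty positions were not tested. Outlines are most frequent in oligodendrocytes, with 11 of 44 tested members for ageing (21.6% of all genes called) and 3 of 44 for treatment (10.1%).

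In oligodendrocytes, the myelinating glia, proteasome genes changed most often with ageing. Of 44 members tested, 10 rose and 1 fell, and 21.6% of all genes tested were called in this comparison (11.1% higher and 10.5% lower). The share of members called was thus near the background, while the direction was mostly upward. All 14 core genes and 13 of 17 regulatory genes had positive estimates. The median log2 fold change of the members was 0.28, against 0.02 over all 13246 genes tested. Of the core, Psma7, Psmb3, Psmb4, Psmb5 and Psmb6 rose, and of the regulatory particle Psmc3, Psmc5, Psmd4, Psmd7 and Psmd13 rose.

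Among the catalytic core subunits, Psmb5 (chymotrypsin-like site; chr14:54614119-54618022, minus strand, GRCm38) had levels of 4.95, 11.1 and 6.51 CPM in Young_EGFP oligodendrocytes, 9.49, 22.5 and 14.97 in Aged_EGFP, and 7.52, 5.31 and 8.08 in Aged_B3GNT3. Aged_EGFP replicates 2 and 3 were the highest, and replicate 1 lay within the young range. Psmb5 rose with ageing by 1.08 ± 0.34 on the log2 scale (± SE; adjusted p = 0.0402, edgeR) from 22 to 93 UMIs per library. Psmb6 (caspase-like site; chr11:70525367-70527858, plus strand) had 11.5, 7.30 and 9.18 CPM, then 10.3, 22.5 and 19.5, then 8.70, 8.79 and 11.3. Its groups overlapped in the same way, through Aged_EGFP replicate 1, and it rose by 0.90 ± 0.28 (adjusted p = 0.0373). Psmb7, which carries the trypsin-like site, did not pass the test, with group means of 48.1 ± 2.35, 49.99 ± 6.26 and 47.8 ± 7.58 CPM (SD, n = 3) and an ageing log2 fold change of 0.06.

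Among the structural beta subunits, Psmb4 (chr3:94884093-94886961, minus strand), which closes the half-ring during core assembly, had 10.6, 10.1 and 10.4 CPM in Young_EGFP, 15.2, 21.0 and 17.1 in Aged_EGFP, and 8.11, 8.06 and 11.1 in Aged_B3GNT3. Every Aged_EGFP library lay above every library of the other groups. The ageing log2 fold change was 0.77 ± 0.21 (adjusted p = 0.0186). Psmb3 (chr11:97703399-97713500, plus strand), a beta ring subunit without a catalytic site, had 20.9, 20.7 and 16.0 CPM, then 26.3, 41.3 and 38.8, then 22.9, 21.1 and 26.2. The young and aged control libraries did not overlap, and Aged_EGFP replicate 1 lay close to Aged_B3GNT3 replicate 3. Psmb3 rose by 0.88 ± 0.19 (adjusted p = 0.00781). The alpha ring subunit Psma7 (chr2:180036374-180042433, minus strand) had 25.3, 23.8 and 21.3 CPM, then 33.9, 42.3 and 39.8, then 31.3, 28.2 and 26.6, with Aged_EGFP highest throughout. It rose by 0.72 ± 0.15 (adjusted p = 0.0063).

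Of the base, the ATPase Psmc3 (chr2:91054009-91066369, plus strand) had 17.9, 19.5 and 18.4 CPM in Young_EGFP oligodendrocytes, 26.8, 30.9 and 28.0 in Aged_EGFP, and 22.2, 19.96 and 19.4 in Aged_B3GNT3. The groups did not overlap, except that Young_EGFP replicate 2 reached the lowest Aged_B3GNT3 library. Psmc3 rose by 0.62 ± 0.15 (adjusted p = 0.0121). The ATPase Psmc5 (chr11:106256154-106263120, plus strand) had 14.2, 10.8 and 11.8 CPM, then 15.2, 21.98 and 23.9, then 17.2, 14.3 and 14.4. Aged_EGFP replicate 1 stood only slightly above the young libraries, and the log2 fold change was 0.73 ± 0.21 (adjusted p = 0.0254). The ubiquitin receptor Psmd4 (chr3:95032694-95042614, minus strand), whose promoter is printed above, had 35.9, 41.7 and 34.1 CPM, then 45.6, 58.5 and 51.2, then 45.7, 41.2 and 41.2. Aged_EGFP replicate 1 lay level with Aged_B3GNT3 replicate 1, and Psmd4 rose with ageing by 0.47 ± 0.14 (adjusted p = 0.0322).

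Of the lid, Psmd13 (chr7:140881968-140898643, plus strand), a scaffold subunit, had 30.6, 29.4 and 29.9 CPM in Young_EGFP, 37.4, 39.6 and 44.9 in Aged_EGFP, and 39.6, 36.1 and 41.6 in Aged_B3GNT3. Both aged groups lay above the young libraries and overlapped each other. Psmd13 rose with ageing by 0.44 ± 0.14 (adjusted p = 0.0367), with a treatment log2 fold change of -0.06 that did not pass (adjusted p = 0.811). Psmd7, which pairs with the deubiquitinase Psmd14, rose by 0.39 (adjusted p = 0.0481), a call kept in only 3 of 20 alternatives. Psmd14 itself had group means of 161 ± 27.1, 145 ± 4.77 and 144 ± 14.5 CPM (SD, n = 3) and did not pass. The member that fell was Psme3 (chr11:101316213-101323537, plus strand), the PA28-gamma activator of the nuclear proteasome. It had 11.7, 12.9 and 12.4 CPM in Young_EGFP, 6.24, 7.005 and 8.15 in Aged_EGFP, and 10.7, 8.97 and 9.94 in Aged_B3GNT3. The aged control libraries were lowest and no group overlapped another. Psme3 fell by 0.78 on the log2 scale (SE 0.20, adjusted p = 0.0172), and its treatment log2 fold change of 0.45 did not pass (adjusted p = 0.162).

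**Figure D3:**
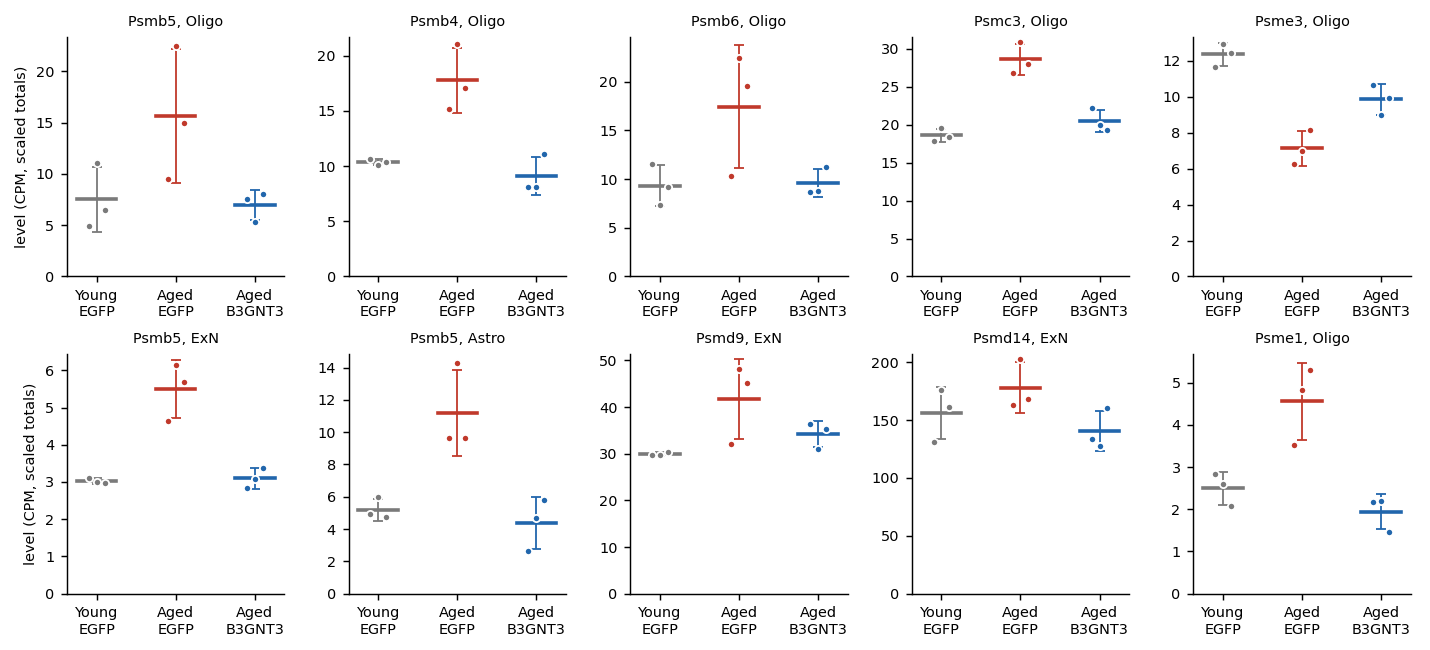
Levels (CPM with TMM-scaled class totals) of members in single libraries (points), with the mean (bar) and SD (whisker) of the 3 libraries of each group. Psmb4 in oligodendrocytes and Psmb5 in excitatory neurons show all Aged_EGFP libraries above both other groups, Psme3 shows them below, and Psmd14 in excitatory neurons shows groups that overlap.

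With treatment, 3 of the 44 members tested in oligodendrocytes fell and none rose, where 10.1% of all genes tested were called (6.14% lower). All 14 core estimates were negative, and the member median was -0.18 against 0.00 over all genes. Psmb4 fell by 0.95 on the log2 scale (SE 0.20, adjusted p = 0.0145, edgeR) and Psmb5 by 1.16 (SE 0.33, adjusted p = 0.0434). Psme1, the PA28-alpha activator induced by interferon, had 2.83, 2.59 and 2.07 CPM in Young_EGFP, 3.53, 4.83 and 5.30 in Aged_EGFP, and 2.18, 2.20 and 1.46 in Aged_B3GNT3. Aged_EGFP libraries lay above all others, on 7 to 28 UMIs per library, and Psme1 fell with treatment by 1.26 (SE 0.32, adjusted p = 0.0265). Its partner Psme2 had group means of 3.05 ± 1.51, 4.68 ± 1.61 and 3.37 ± 0.77 CPM (SD, n = 3) and passed neither test. For the members that rose with ageing and did not pass for treatment, the estimates ranged from -0.86 for Psmb6 (adjusted p = 0.0597) to -0.06 for Psmd13.

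In excitatory neurons 5 of 45 members rose with ageing and none fell, where 14.1% of all 16937 genes tested were called (7.46% higher). In the same sums the 8 oligodendrocyte markers summed to 196 to 238 CPM in Young_EGFP, 120 to 150 in Aged_EGFP and 196 to 234 in Aged_B3GNT3, with none at 0 and the Aged_EGFP libraries below all others. The 8 microglia markers were at 27.3 to 38.8, 41.3 to 43.2 and 30.25 to 41.6 CPM. The 7 markers of excitatory neurons were at 1532 to 1705, 1348 to 1527 and 1496 to 1612 CPM. The part of these markers in the result was not tested. Psmb5 had 3.104, 2.99 and 2.98 CPM in Young_EGFP, 4.63, 6.14 and 5.69 in Aged_EGFP, and 2.83, 3.09 and 3.37 in Aged_B3GNT3. Aged_EGFP libraries lay above all others, by an ageing log2 fold change of 0.86 ± 0.18 (adjusted p = 0.0128). Psmb6 had 3.14, 3.104 and 3.14 CPM, then 3.98, 6.88 and 5.73, then 4.24, 2.96 and 2.68, so that Aged_EGFP replicate 1 lay below the highest Aged_B3GNT3 library. It rose by 0.83 ± 0.23 (adjusted p = 0.0358). The alpha ring subunit Psma4 (chr9:54950790-54958030, plus strand) had 15.96, 13.95 and 12.9 CPM, then 16.7, 21.5 and 22.4, then 19.3, 19.8 and 18.6. Here both aged groups lay above the young libraries, and the ageing log2 fold change was 0.50 ± 0.13 (adjusted p = 0.0307).

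Psmd13 in excitatory neurons had 27.8, 28.7 and 26.8 CPM in Young_EGFP, 34.6, 42.7 and 40.8 in Aged_EGFP, and 34.0, 31.2 and 31.7 in Aged_B3GNT3. The 3 groups were ordered without overlap, and Psmd13 rose with ageing by 0.51 ± 0.10 (adjusted p = 0.0134). The base assembly chaperone Psmd9 (chr5:123169413-123250131, plus strand) had 29.8, 29.7 and 30.3 CPM, then 32.0, 48.1 and 45.2, then 36.3, 31.0 and 35.4. Aged_EGFP replicate 1 lay among the Aged_B3GNT3 libraries, and Psmd9 rose by 0.48 ± 0.14 (adjusted p = 0.0399). Psmd9 was also the 1 member of 44 that rose in inhibitory neurons, where 3.89% of all genes were called (2.3% higher). It had 27.0, 30.7 and 30.5 CPM there in Young_EGFP, 36.3, 47.0 and 46.1 in Aged_EGFP, and 37.4, 33.3 and 34.1 in Aged_B3GNT3, a log2 fold change of 0.56 ± 0.13 (adjusted p = 0.0365). The 8 oligodendrocyte markers in the inhibitory sums were at 163 to 235 CPM in Young_EGFP, 140 to 161 in Aged_EGFP and 189 to 202 in Aged_B3GNT3, with none at 0 and Aged_EGFP below all others, and their part in the result was not tested. Psmd9 overlaps Hpd and the long non-coding genes Gm26745 and Gm43409 on the other strand.

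With treatment, 1 of 45 members fell in excitatory neurons (Psmb5, by 0.82 on the log2 scale, SE 0.18, adjusted p = 0.0404), where 2.5% of all genes were called (1.58% lower). For 13 of 14 core genes the estimate was negative. In inhibitory neurons no member of 44 was called by edgeR or DESeq2, with 4 at an unadjusted p under 0.05 in edgeR, where 0.671% of all genes were called. Psmb5 had a treatment log2 fold change of -0.81 there (adjusted p = 0.148).

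In astrocytes 2 of 42 members rose with ageing, where 12.6% of all genes were called (5.03% higher). The 8 oligodendrocyte markers in the astrocyte sums were lowest in Aged_EGFP, at 269 to 387 CPM against 446 to 597 in Young_EGFP and 409 to 464 in Aged_B3GNT3, with none at 0. The 8 microglia markers there went the other way, at 46.1 to 56.6 CPM in Young_EGFP, 61.2 to 74.9 in Aged_EGFP and 52.25 to 63.4 in Aged_B3GNT3. The part of these markers in the result was not tested. The same 2 members, Psmb4 and Psmb5, fell with treatment, where 5.47% were called (3.04% lower). Psmb5 had 4.91, 5.98 and 4.72 CPM in Young_EGFP, 9.62, 14.3 and 9.66 in Aged_EGFP, and 2.65, 4.69 and 5.80 in Aged_B3GNT3. Psmb4 had 6.03, 7.48 and 8.66 CPM, then 10.7, 16.2 and 13.02, then 6.49, 6.67 and 6.63. For both genes every Aged_EGFP library lay above all others. Psmb5 rose by 1.09 ± 0.31 (adjusted p = 0.0362) and fell by 1.37 (SE 0.33, adjusted p = 0.0263), and Psmb4 rose by 0.88 ± 0.26 (adjusted p = 0.0381) and fell by 1.02 (SE 0.26, adjusted p = 0.0382). These rest on 9 to 29 UMIs of Psmb5 per library.

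In the classes with fewer nuclei no member was called by edgeR or DESeq2. For ageing, 1.37% of all genes were called in oligodendrocyte precursors (37 members tested, 4 at an unadjusted p under 0.05 in edgeR), 6.2% in microglia (28 tested, 4) and 0.0439% in brain endothelial cells (18 tested, 2). For treatment the shares were 0.201% (1 member at an unadjusted p under 0.05), 0.761% (0 members) and 0.285% (2 members). In brain endothelial cells Psma7 had 31.2, 62.9 and 29.6 CPM in Young_EGFP, 98.1, 119 and 121 in Aged_EGFP, and 50.2, 28.5 and 33.1 in Aged_B3GNT3, from 5 to 19 UMIs. Aged_EGFP libraries lay above all others, but the ageing log2 fold change of 1.43 ± 0.39 (adjusted p = 0.121) and the treatment change of -1.60 ± 0.41 (adjusted p = 0.0970) did not pass. No difference was thus shown, and the part of the low depth was not tested.

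The difference in response between excitatory neurons and oligodendrocytes was tested within libraries with limma. For ageing, 0 of 44 members were called, 11 having an unadjusted p under 0.05, where 9.36% of all genes were called, so the ageing response of no member was shown to differ between these classes. For treatment 1 was called, where 3.6% of all genes were (2.79% with a negative difference). This was Psmd5 (chr2:34849734-34874968, minus strand), a chaperone that holds base subunits during assembly. In oligodendrocytes it had 21.2, 19.5 and 20.4 CPM in Young_EGFP, 16.5, 13.8 and 21.8 in Aged_EGFP, and 25.7, 21.98 and 29.03 in Aged_B3GNT3, and in excitatory neurons 16.1, 15.5 and 17.1, then 16.3, 14.6 and 22.6, then 17.8, 16.2 and 20.01. Neither class passed alone, with treatment log2 fold changes of 0.55 ± 0.19 (adjusted p = 0.0776) and 0.02 ± 0.16 (adjusted p = 0.965). The difference, excitatory neurons minus oligodendrocytes, was -0.54 (SE 0.11, adjusted p = 0.0354), and it was lost when any 1 library was left out.

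Immunoproteasome subunits, which replace the catalytic subunits in cells exposed to interferon, were at low levels. Psmb8, Psmb9 and Psmb10 summed to 25.9 ± 8.68 CPM in Young_EGFP microglia, 48.5 ± 11.4 in Aged_EGFP and 33.6 ± 8.45 in Aged_B3GNT3 (SD, n = 3), and to 1.65 ± 0.27, 2.68 ± 1.01 and 1.95 ± 0.36 in excitatory neurons. The Aged_EGFP microglial libraries overlapped the Aged_B3GNT3 libraries. The share of UMIs in 96 genes with a ribosomal protein symbol (Rpl or Rps) was 0.277, 0.433 and 0.288% in microglia. The symbol rule also matches kinase genes of the Rps6k family, so this share is not of ribosomal proteins alone. The 8 microglia markers were at 4222 to 4745, 5989 to 7546 and 4904 to 6195 CPM in microglia. Without the 831 nuclei led by Mrc1 the microglial sums were 25.5 ± 12.2, 43.3 ± 11.97 and 26.6 ± 10.9 CPM, and the Aged_EGFP libraries (30.4 to 54.0) then also overlapped the Young_EGFP libraries (16.8 to 39.5). In brain endothelial cells the sums were 21.2 ± 6.001, 74.3 ± 51.4 and 26.4 ± 8.55 CPM, with a range of 23.7 to 127 in Aged_EGFP. Psmb9 had 0 UMIs in each Young_EGFP endothelial library, 8, 3 and 3 in Aged_EGFP, and 0, 1 and 1 in Aged_B3GNT3. These are too few for the test. Only Psmb9 in microglia and Psmb10 in neurons, astrocytes and oligodendrocytes were tested, and none of these passed. The 8 microglia markers in the endothelial sums were at 108 to 132 CPM in Young_EGFP, 196 to 212 in Aged_EGFP and 94.9 to 251 in Aged_B3GNT3, with 0, 1 and 2 of them at 0. The share of the 96 genes with a ribosomal protein symbol was 0.463, 0.882 and 0.426% there. The 8 endothelial markers were at 10721 to 14166, 15334 to 20059 and 11497 to 12492 CPM in these sums. The share of free RNA was estimated from mitochondrial UMIs against the low-UMI cluster. In endothelial cells it was 15.9 to 21.5% in Young_EGFP, 16.2 to 25.1% in Aged_EGFP and 12.4 to 15.5% in Aged_B3GNT3. In microglia it was 1.06 to 2.365, 2.26 to 3.42 and 1.45 to 3.04% in the same order. The summed immunoproteasome genes in that cluster were at 29.8 ± 24.3, 17.4 ± 3.94 and 28.9 ± 17.1 CPM, with the lowest mean in Aged_EGFP. The part of these measures in the microglial and endothelial sums was not tested.

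**Figure D4:**
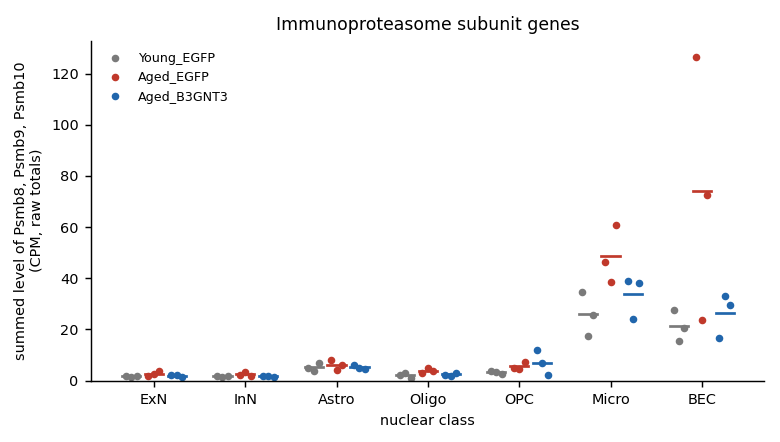
Summed level of the immunoproteasome subunit genes Psmb8, Psmb9 and Psmb10 (CPM over raw class totals) by nuclear class. Points are libraries and lines group means; microglia (25.9 to 48.5 CPM) and brain endothelial cells (21.2 to 74.3) lie above neurons (excitatory, 1.65 to 2.68), and the endothelial Aged_EGFP libraries are spread from 23.7 to 127.

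Further members, described whatever their result, differed by less than the spread between libraries or did not pass. The large nuclear activator Psme4 had means of 358 ± 38.7, 340 ± 44.4 and 310 ± 6.24 CPM in excitatory neurons and 295 ± 31.5, 272 ± 3.21 and 276 ± 18.01 in oligodendrocytes (SD, n = 3). Psmf1, an inhibitor of the core in vitro, had 24.7 ± 1.02, 23.1 ± 1.55 and 24.3 ± 0.32 CPM in excitatory neurons. Psmd14 in these neurons had 156 ± 22.7, 178 ± 21.8 and 141 ± 17.4. Of the core assembly chaperones, Psmg1 had an ageing log2 fold change of -0.51 ± 0.17 in excitatory neurons (adjusted p = 0.0631), with 6.32 ± 0.46, 4.47 ± 0.72 and 5.81 ± 0.51 CPM, and Psmg2, Psmg3 and Psmg4 passed in no class. Psmg3 overlaps a gene on its own strand, as do Psma2, Psmd1 and Psme2b, so their counts may be shared or lost. Over all kept nuclei the testis-restricted Psma8 had 37 UMIs in the Young_EGFP, 73 in the Aged_EGFP and 65 in the Aged_B3GNT3 libraries, and the thymic Psmb11 had 10, 15 and 4.

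Of 27 other genes of the ubiquitin-proteasome pathway, the ubiquitin genes Ubb and Rps27a were called most often. The list was Adrm1, Sem1, Uchl5, Usp14, Ecpas, Pomp, Akirin2, Nfe2l1, Nfe2l2, Ddi2, Ngly1, Ubqln1, Ubqln2, Ubqln4, Rad23b, Ube3a, Ube3c, Uba1, Ubb, Rps27a, Vcp, Nploc4, Ufd1, Zfand5, Txnl1, Hspa4 and Bag6. In oligodendrocytes 2 of 27 rose with ageing (Ubb and Rps27a) and 3 fell with treatment (the same 2 and Pomp), where 11.1% of all genes tested were called higher with ageing and 6.14% lower with treatment. The polyubiquitin gene Ubb had 52.2, 76.3 and 62.8 CPM in Young_EGFP oligodendrocytes, 127, 243 and 157 in Aged_EGFP, and 37.6, 41.9 and 58.5 in Aged_B3GNT3. Aged_EGFP libraries lay above all others, and Ubb rose by 1.47 ± 0.24 (adjusted p = 0.0023) and fell by 1.93 (SE 0.24, adjusted p = 0.0037). Rps27a, which encodes ubiquitin fused to a ribosomal protein, rose by 1.44 and fell by 1.35 on the log2 scale. In excitatory neurons 2 of 27 rose with ageing (Ubb, by 1.16, and Rps27a, by 0.98) and 1 fell (Hspa4, by 0.29), and only Ubb was called for treatment, falling by 1.39, where 7.46% of all genes were called higher with ageing and 1.58% lower with treatment.

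In brain endothelial cells 2 of the 20 pathway genes tested fell with treatment (Pomp and Ubb), where 0.285% of all genes were called. Pomp, the maturation factor of the core particle, fell by 2.24 (SE 0.36, adjusted p = 0.0219, edgeR). It had 46.8, 44.9 and 59.3 CPM in Young_EGFP, 147, 134 and 159 in Aged_EGFP, and 31.4, 38.0 and 19.8 in Aged_B3GNT3, from 3 to 25 UMIs per library. Estimated free RNA in these sums was 16.2 to 25.1% in Aged_EGFP and 12.4 to 15.5% in Aged_B3GNT3, and its part was not tested. Ubb rose with ageing in the 6 classes other than brain endothelial cells, by 1.16 to 1.52, and fell with treatment in all 7 classes, by 1.36 to 1.95 on the log2 scale. In microglia the protease Ddi2, which activates Nrf1, rose with ageing by 0.66 ± 0.19 (adjusted p = 0.0487). Ddi2 overlaps a gene on its own strand, and Nfe2l1 was called in no class.

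The calls of members were not spread evenly over gene length. Of the 50 members, 22 span at most 10 kb and 28 more, including 5 of 14 core and 6 of 17 regulatory genes among the short ones. In oligodendrocytes 7 of 17 tested short members rose with ageing and 1 fell, with a median log2 fold change of 0.55, and of all 2804 short genes 21.3% rose, with a median of 0.41. Of 27 long members 3 rose, with a median of 0.15, and of all 10420 long genes 8.3% rose, with a median of -0.06. For treatment 3 of 17 short members fell, with a median of -0.43, where 17.2% of short genes fell, with a median of -0.36. No long member fell, with a median of -0.08, where 3.17% of long genes did. Excitatory neurons had a like order for ageing, with medians of 0.27 for short members and 0.22 for all short genes, but -0.11 and -0.18 for treatment. For ageing, short members lay below all short genes in inhibitory neurons (0.21 and 0.23), precursors (0.28 and 0.30) and microglia (0.33 and 0.42). They lay above them in astrocytes (0.43 and 0.28) and brain endothelial cells (1.26 and 0.85). These medians rest on only 3 short members in brain endothelial cells, 5 in microglia and 10 in precursors, none of them called for ageing.

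**Figure D5:**
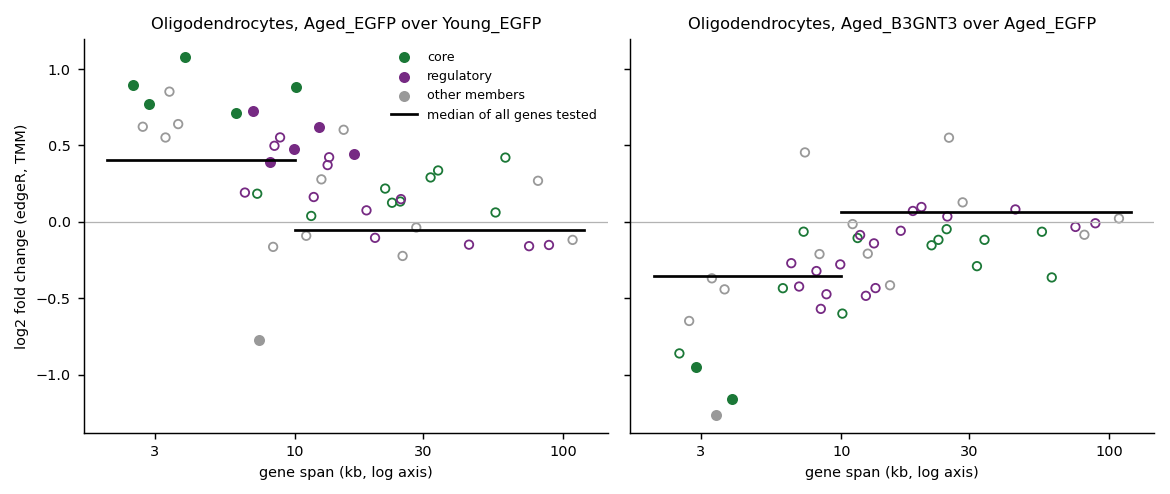
Log2 fold change of each tested member in oligodendrocytes against its gene span (kb, log axis), for ageing (left) and treatment (right). Filled points have an adjusted p under 0.05, colours give the particle, and black lines give the median of all genes tested up to and over 10 kb (0.41 and -0.06 for ageing, -0.36 and 0.07 for treatment); the median of members up to 10 kb (0.55 and -0.43) lies farther from 0 than that of longer ones (0.15 and -0.08) in both.

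Other measures of the nuclei moved with these results. The share of UMIs in the 96 genes with a ribosomal protein symbol, Rps6k kinase genes included, was 0.209 ± 0.019% in Young_EGFP oligodendrocytes, 0.331 ± 0.044% in Aged_EGFP and 0.215 ± 0.014% in Aged_B3GNT3. In astrocytes it was 0.193, 0.253 and 0.184%, and in excitatory neurons 0.135, 0.158 and 0.142%. The mitochondrial share in oligodendrocytes was 0.0119, 0.0186 and 0.0086%. With that share as a covariate, no member was called in excitatory neurons, inhibitory neurons or oligodendrocytes in either comparison, nor for treatment in astrocytes, where 2 members were still called for ageing. All 23 calls lost in this way kept their sign, and 16 kept at least 80% of their log2 fold change, while the SE grew in all 23, by 1.07 to 1.84 times. For ageing in oligodendrocytes Psma7 was at 0.63 with the covariate (0.72 without), Psmc3 at 0.60 (0.62) and Psmb5 at 0.61 (1.08). For treatment in oligodendrocytes Psmb5 was at -0.33 ± 0.56 (-1.16 without). Summed markers of oligodendrocytes in their own class were 11490 to 13240 CPM in Young_EGFP, 13570 to 14780 in Aged_EGFP and 11000 to 12410 in Aged_B3GNT3. The 8 astrocyte markers summed to 387 to 783 CPM in Young_EGFP oligodendrocytes, 299 to 459 in Aged_EGFP and 430 to 647 in Aged_B3GNT3, with none at 0. The 9 inhibitory neuron markers summed to 215 to 381, 185 to 654 and 419 to 517 CPM there. The part of these measures in the results was not tested beyond the covariate.

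The counts rested on single libraries. Without Aged_EGFP replicate 1, which lay nearest to the other groups, 12 members were called for ageing in oligodendrocytes and 12 in excitatory neurons. Without Aged_EGFP replicate 2 the counts were 5 and 0. The share of all genes called in these fits is not given, so the counts are not set against a background. The scaling of class totals also mattered for treatment. With raw totals in place of TMM scaling, the median treatment log2 fold change over all genes moved from 0.01 to 0.14 in excitatory neurons and from 0.00 to 0.11 in oligodendrocytes, and estimates of 30 in place of 15 of 45 members were positive in excitatory neurons, so that directions of members that were not called are relative to this shift.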

How the data were processed

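Single-nucleus RNA sequencing (10x Genomics 3′ v3.1) of 9 libraries was used, from nuclei sorted on Hoechst after Dounce lysis. The deposited values are raw UMI counts, aligned by the authors to mm10 (GRCm38). The submitters' processing notes name Cell Ranger 4.0.0 and the file headers 7.2.0, and whether intronic reads were counted is not given in the sources used here. This bears on the results by gene span, since unspliced RNA is captured more from long genes. There were 0 columns of other per-sample values.

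Barcodes with 200 to 5000 genes and no more than 10% of UMIs from mitochondrial genes were retained, and doublets were removed at a preset 0.8% per 1000 barcodes. Counts were clustered in Python 3.11.15 (2000 variable genes, 15 principal components, 20 neighbours, Leiden resolution 0.3). Variable genes and components were computed with numpy 2.4.6, neighbours with scikit-learn and clusters with igraph and leidenalg. Clusters were named from at least 3 markers at 2 times the median cluster. A cluster with at least 50% of another class's markers stayed unnamed, a limit taken from an earlier analysis, which had set it after seeing clusters. Sums per library and class were tested with edgeR 4.0.16 (R 4.3.3; TMM, filterByExpr with a minimum count of 10, quasi-likelihood, all 9 libraries in 1 fit, Benjamini-Hochberg over the class). The class difference used limma 3.58.1 on log2 CPM with a prior count of 2. DESeq2 1.42.0, other scaling, filters, clustering, free-RNA subtraction, a mitochondrial covariate and leaving out libraries were alternatives. The scripts were tested on simulated data. P-values rest on the spread between libraries, 1 per animal, in which differences of animals, preparation and counting cannot be told apart.

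Named were all called members, a list of catalytic, immune, restricted, activator and chaperone subunits whatever their result, and up to 3 called pathway genes per class and comparison with the lowest adjusted p. The members, lists and tests were chosen with earlier results of these data known. Positions are from GENCODE vM21 (30934 of 31053 genes matched), and promoters from RefSeq on GRCm38.p6, with 42 of 50 members matched. Results of some pathway genes are not reported here.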

Additional observations from a re-analysis of the deposited data

Results flagged for a closer look

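Among the members and the other pathway genes reported here, 2 were called for a difference in response between excitatory neurons and oligodendrocytes. The test was limma on the difference within libraries, with Benjamini-Hochberg adjustment over 12993 genes. Of all these genes 3.6% were called for treatment and 9.36% for ageing. For treatment 1 of 44 members (2.27%) and 1 of 27 other pathway genes were called, near the share over all genes. Psmd5 had a treatment difference, excitatory neurons minus oligodendrocytes, of -0.54 on the log2 scale (adjusted p = 0.0354), a call kept in 4 of 16 alternatives. Rps27a had a treatment difference of 0.66 (adjusted p = 0.04999, just under the threshold), having fallen by 1.35 in oligodendrocytes.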

How the results depend on the processing

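Of 57 tracked log2 fold changes (26 of members), 811 of 1133 alternative values kept their call, 0 reversed, 204 lost it when a library was left out and 118 under other settings, 44 of these with the mitochondrial share as a covariate. Psma7, Psmb3 and Psmc3 in oligodendrocytes lost their ageing call only with that covariate, and Psme3 with it and without Young_EGFP replicate 2. With the covariate their log2 fold changes were 0.63, 0.58, 0.60 and -0.85, against 0.72, 0.88, 0.62 and -0.78 without it, with larger SEs. The cause was not tested.

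Counts of members called changed as follows. Where no share over all genes stands beside a count, here or in the following paragraphs, the count is not set against its background. With the mitochondrial covariate, 0 were called for ageing in excitatory neurons, inhibitory neurons and oligodendrocytes, and 0 for treatment in excitatory neurons, astrocytes and oligodendrocytes. With DESeq2 there were 2 for treatment in excitatory neurons, where 8.52% of all genes were called. In astrocytes there were 0 for ageing (10.3% of all genes) and 1 for treatment (5.57%). With raw totals, an alternative chosen after seeing the data, there were 0 for treatment in excitatory neurons (4.76% of all genes) and 1 in astrocytes (7.04%). With only the libraries compared there were 0 for treatment in excitatory neurons, 0 for ageing in inhibitory neurons, 1 each for ageing and treatment in astrocytes, 6 for ageing in oligodendrocytes and 0 class differences for treatment. With no filter on low counts there were 1 for treatment in inhibitory neurons, 5 in oligodendrocytes, 1 in precursors and 1 for ageing in endothelial cells. With no upper limit on genes there were 1 for ageing in precursors and 0 class differences for treatment, and the core to regulatory ratio of Aged_B3GNT3 excitatory neurons was 0.645 (0.642 with free RNA subtracted). With TMM totals the core sums of excitatory neurons were 418 CPM in Young_EGFP, 433 in Aged_EGFP and 404 in Aged_B3GNT3, and the regulatory sums 641, 666 and 627, so that the direction for treatment turned.

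Same-numbered libraries had correlations of -0.27 to 0.30 in their deviations, and 22 of 63 sums correlated best with a sum of their own number, so the numbers do not pair them. With the replicate block, 2 members were called for ageing in excitatory neurons, 0 for treatment there, 0 for ageing in inhibitory neurons and 0 class differences for treatment.

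With 1 library left out at a time, ageing counts ranged from 0 to 12 in excitatory neurons, 0 to 5 in inhibitory neurons, 0 to 6 in astrocytes and 4 to 12 in oligodendrocytes, and treatment counts from 0 to 4 in excitatory neurons, 0 to 4 in astrocytes, 0 to 6 in oligodendrocytes and 0 to 1 in precursors. Class differences ranged from 0 to 1 in both comparisons. Ageing counts in excitatory neurons were 0 without Young_EGFP replicate 3 or Aged_EGFP replicate 2, and in oligodendrocytes they were 4 to 6 without any 1 Young_EGFP library, Aged_EGFP replicate 2 or 3 or Aged_B3GNT3 replicate 1. The highest counts came without Aged_EGFP replicate 1. The treatment call in excitatory neurons was lost without Young_EGFP replicate 2 or 3, Aged_EGFP replicate 2 or 3 or Aged_B3GNT3 replicate 1 or 2. Treatment counts in astrocytes were 0 without Aged_EGFP replicate 2 or Aged_B3GNT3 replicate 1 or 2. Treatment counts in oligodendrocytes were 0 without Aged_B3GNT3 replicate 1 or 2, and ageing counts in astrocytes were 0 without any 1 Young_EGFP library or without Aged_EGFP replicate 2 or 3. Summed levels over the same omissions stayed within 391.6 to 446 CPM for the core and 603 to 677 CPM for the regulatory genes in excitatory neurons. Endothelial values rest on 51 to 117 nuclei per library.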
